A study of Mus musculus with 9 samples.

Results

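The genes described here are 10 regulators of the integrated stress response: the transcription factors Atf4, Atf5, Atf3 and Ddit3 (which encodes CHOP), the feedback genes Trib3, Ppp1r15a and Ddit4, and the stress-induced genes Chac1, Gdf15 and Nupr1. They were chosen by name, after results of these same libraries had been seen, and which comparison led to the choice is not recorded. All values of the 10 genes in the 3 comparisons are therefore given as a description of these libraries, and the p-values printed with them are those of the fit over all genes and are no independent evidence. Of 52661 gene rows, 11 carry one of the 10 symbols. The eleventh row is a short second Ddit3 entry with 1 count in 1 library, which was not used. All 10 genes passed the filter on low counts, among 18408 genes tested.

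RNA was sequenced from C57BL/6 mouse embryonic fibroblasts immortalised with T/t antigen, with 3 libraries in each of 3 groups. Wild type cells carried the copper importer Ctr1 (gene Slc31a1), Ctr1 -/- cells (Ctr1-null below, named FloxedCtr1 in the sample titles) lacked it, and the last 3 libraries came from Ctr1-null cells given BCS (bathocuproine disulfonic acid), an extracellular copper chelator, at 500 μM for 48 hours (the series record gives 500 mM). The labels give no treatment for wild type and untreated Ctr1-null cells, and no wild type cells with BCS were analysed here, so the effect of BCS was measured only where Ctr1 was absent. The labels do not state that the libraries of a group came from separate cultures or that more than 1 Ctr1-null line was used, so p-values measure only the spread between these libraries, and loss of Ctr1 cannot be told apart from another difference between the cell lines.

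In the integrated stress response, kinases that sense different stresses phosphorylate the translation factor eIF2, which lowers most protein synthesis. Translation of a few mRNAs with upstream open reading frames, among them Atf4, Atf5 and Ddit3, rises at the same time. ATF4 then pairs with C/EBP proteins at composite DNA sites and activates genes of amino acid supply and stress adaptation, as well as Ddit3, Trib3 and Ppp1r15a, whose products restrain or redirect the response. The data here are mRNA levels, so protein levels and eIF2 phosphorylation were not measured.

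Total counts per library ran from 38962036 to 57206337, so that a count of 0 would allow at most 0.0811 CPM (counts per 1000000 of the library's TMM-scaled total) in the shallowest library, from counting error alone. Slc31a1 was at a mean of 55.2 CPM in wild type, 2.61 in Ctr1-null and 2.49 with BCS, which matches the labels. Wild type replicate 1 stood apart from its group. Along the first principal component it had a score of -0.144, among the Ctr1-null libraries (-20.3 to 7.82), whereas replicates 2 and 3 had 40 and 39.7. Values against wild type are therefore also given without wild type replicate 1. Of 9 fibroblast markers, 8 reached 1 CPM, with summed levels of 15469 to 19852 CPM over the 9 libraries. Thy1 did not. Of the markers of other cell types, 4 of 6 for epithelium (Epcam and Cdh1 among them), 2 of 5 for endothelium (Cdh5), 5 of 7 for macrophages and blood (Ptprc), 5 of 6 for muscle (Myod1, Myog), 3 of 7 for fat cells (Adipoq, Plin1) and 3 of 6 for neural progenitors and glia (Gfap, Sox10) stayed under 1 CPM in every library. The other markers were detected, and several summed levels moved with the groups. In the order wild type, Ctr1-null and BCS, the sums were 166 to 193, 151 to 197 and 128 to 164 CPM for epithelium, 27.5 to 38.1, 26.1 to 33.9 and 23.8 to 32.05 for endothelium, and 5.76 to 12.6, 9.58 to 17.8 and 12.6 to 22.2 for macrophages and blood. They were 1.115 to 1.58, 1.90 to 4.54 and 3.65 to 8.90 for muscle, 24.4 to 30.3, 58.7 to 85.5 and 67.3 to 81.7 for fat cells, and 156 to 244, 171 to 200 and 119 to 144 for the neural list. Their part in the results below was not tested.

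ATF4 and C/EBP proteins bind a composite element whose core can be written TGATGNAA, and ATF and CREB proteins bind the CRE, with the core TGACGT. Both were searched on both strands in the RefSeq promoter windows (GRCm38.p6, 250 bases before to 50 after each start site) of all 10 genes, which have 12 windows. The composite core was present at Atf3, Trib3, Chac1 and Nupr1, 4 of the 10 genes, against 4.51% of all genes with a window. The CRE core was present at Atf3 and Ppp1r15a, against 8.37%. Neither was present in these windows at Atf4, Atf5, Ddit3, Gdf15 and Ddit4, and a site outside a window would be missed. The stretches that hold the matches are shown so that the shared letters can be compared. They read 5′ to 3′ on the gene's strand, with the matched core in capitals, in which a match on the opposite strand appears as its reverse complement. A match is a description of the sequence, not a measured binding site. The RefSeq start sites used for Atf3 and Nupr1 lie inside the longer genes of GENCODE M21, and for Trib3 the match lies just after the RefSeq start site and before the gene's first base in GENCODE M21, which is 152344032 on the minus strand.
Atf3, chr1:191183334-191183453, minus strand, composite core and CRE: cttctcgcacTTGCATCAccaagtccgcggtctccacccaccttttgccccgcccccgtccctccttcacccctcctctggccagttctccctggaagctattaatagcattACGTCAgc
Chac1, chr2:119351032-119351091, plus strand, composite core: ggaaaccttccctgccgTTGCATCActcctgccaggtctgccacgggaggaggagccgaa
Nupr1, chr7:126625551-126625610, minus strand, composite core: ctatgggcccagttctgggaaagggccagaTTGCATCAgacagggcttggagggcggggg
Trib3, chr2:152344028-152344057, minus strand, composite core: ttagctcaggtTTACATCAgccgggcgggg
Ppp1r15a, chr7:45526269-45526318, minus strand, overlapping CRE cores on both strands: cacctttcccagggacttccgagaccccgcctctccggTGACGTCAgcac

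The matched letters are the same in Atf3, Chac1 and Nupr1 but not in Trib3. The composite core starts 110 bases before the start site in both Atf3 and Nupr1 and 193 before it in Chac1. After BCS all 10 genes had a positive fitted log2 change, with or without a match. Among the 4 with the composite core it was largest for Trib3 (1.54 ± 0.24, SE) and smallest for Nupr1 (0.22 ± 0.23). Atf5, Ddit3 and Gdf15, which passed the test, had no match in these windows. Whether the matches go with the changes was not tested.

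**Figure D1:**
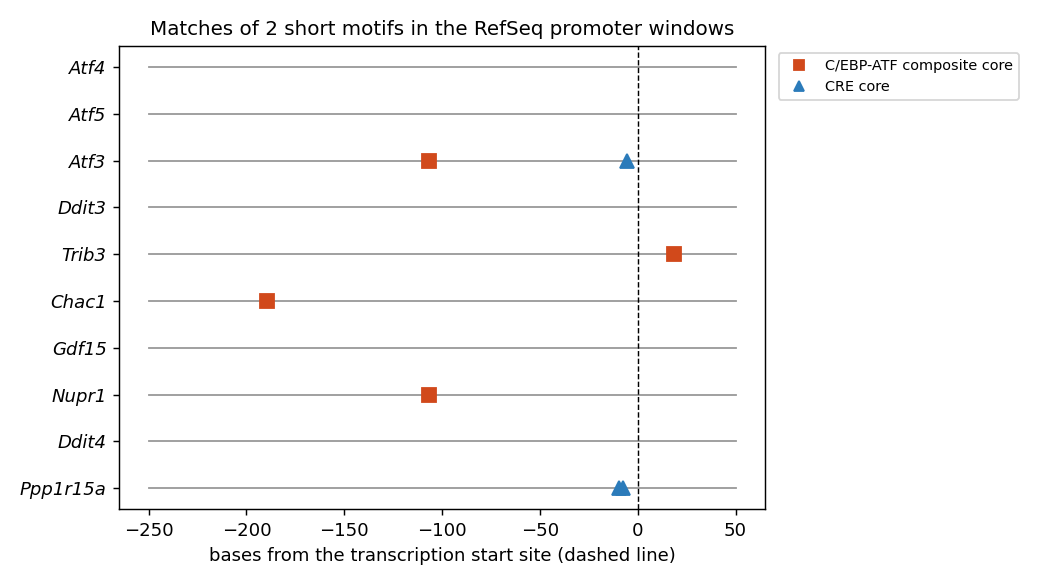
Positions of the composite core (squares) and the CRE core (triangles) in bases from the transcription start site (dashed line at 0) for each of the 10 genes, with Atf5 and Gdf15 having 2 start sites each, drawn as 1 line. Squares appear on 4 lines and triangles on 2, and the remaining 5 lines are empty.

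Adding BCS to Ctr1-null cells asks what chelation adds to loss of the importer. All 10 genes had higher mean levels with BCS. Atf5, Ddit3 and Gdf15 passed the test over all genes, 3 of 10 members, where 0.0380% of the genes tested were called higher and 0.0163% lower (called means an adjusted p under 0.05 by the quasi-likelihood test of edgeR, after Benjamini and Hochberg). For 8 of the 10, all but Nupr1 and Ppp1r15a, the 3 BCS libraries lay above all 3 Ctr1-null libraries, against 13.4% of the genes tested. The median log2 fold change of the 10 genes was 0.74, against 0.0017 over all genes tested. Since the genes were chosen with these results known, these counts describe the members and support nothing beyond them. In cultures measured in bulk, more cells that express a gene and more mRNA per cell cannot be told apart.

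Atf5 (chromosome 7, 44812256 to 44816658) encodes a transcription factor close to ATF4 that is linked to the mitochondrial stress response. It was at 46.3, 33.6 and 37.1 CPM in Ctr1-null replicates 1, 2 and 3 and at 89.6, 85.6 and 98.7 CPM with BCS. The lowest BCS library was thus well above the highest Ctr1-null library, and the wild type libraries, at 37.9, 33.1 and 37.0 CPM, lay near the Ctr1-null ones. The fitted change with BCS was 2.34-fold, or 1.23 ± 0.12 on the log2 scale (± SE here and below; adjusted p = 0.0117 in edgeR), and its p was the second smallest of the 18408 genes. Atf5 shares its locus with Nup62 on the opposite strand, and the counting is not stated to use strand. Nup62 had a log2 fold change of -0.04 ± 0.09, and Il4i1, which also overlaps, averaged at most 0.540 CPM in a group.

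Ddit3 (chromosome 10, 127290774 to 127296288) encodes CHOP, the factor that promotes death under prolonged stress. It was at 29.5, 35.2 and 33.8 CPM in Ctr1-null cells and at 56.4, 60.4 and 62.0 CPM with BCS, so the groups did not overlap and the libraries of each group lay close together. The log2 fold change was 0.86 ± 0.09 (edgeR adjusted p = 0.0148), or 1.81-fold. It rested on 1282 to 3193 counts per library over the 9 libraries. Mars, which overlaps Ddit3 on the opposite strand, had 0.10 ± 0.11.

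Gdf15 (chromosome 8, 70629393 to 70632456) encodes a secreted cytokine of the TGF-beta superfamily that is released by stressed cells. Its 3 Ctr1-null libraries were at 4.26, 5.56 and 6.61 CPM and its 3 BCS libraries at 14.2, 12.9 and 17.5 CPM. It was the least abundant of the 10 genes per length of transcript in wild type and Ctr1-null cells, and each BCS library was above every other library. The log2 fold change was 1.44 ± 0.17 (edgeR adjusted p = 0.0293), or 2.72-fold.

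Trib3 (chromosome 2, 152337422 to 152344032), a pseudokinase that binds and restrains ATF4 and CHOP, had the largest fitted change with BCS of the 10 genes. It was at 16.04, 11.05 and 8.45 CPM in Ctr1-null cells and at 33.9, 28.1 and 41.1 CPM with BCS. These groups stood apart, but the spread within each was wide, and the log2 fold change of 1.54 ± 0.24 had an edgeR adjusted p of 0.0834. Chac1 (chromosome 2, 119351229 to 119354381), an enzyme that degrades glutathione, was at 12.9, 8.62 and 6.15 CPM and then at 16.3, 18.2 and 23.1 CPM. Its groups stood closer together, and the log2 fold change was 1.06 ± 0.28 (edgeR adjusted p = 0.164).

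Atf4 itself (chromosome 15, 80255184 to 80257541), the central factor of the response, was the most abundant of the 10. It was at 256, 210 and 192 CPM in Ctr1-null cells and at 338, 357 and 319 CPM with BCS, with no overlap. The log2 fold change was 0.63 ± 0.12 (edgeR adjusted p = 0.0924), or 1.54-fold, a smaller change than in Atf5, with 95% intervals that did not overlap (0.35 to 0.90 for Atf4 and 0.96 to 1.5 for Atf5).

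Atf3 (chromosome 1, 191170296 to 191218039), an early stress factor of the same family, was at 8.17, 6.82 and 5.56 CPM in Ctr1-null cells and at 12.6, 10.3 and 8.78 CPM with BCS. The lowest BCS library was only just above the highest Ctr1-null library, and the log2 fold change of 0.62 ± 0.22 did not pass (edgeR adjusted p = 0.239). Ddit4 (chromosome 10, 59949669 to 59951834), an inhibitor of the growth kinase complex mTORC1, was at 59.6, 57.9 and 48.6 CPM without BCS. With BCS it was at 79.6, 67.4 and 70.3 CPM, above all 3 Ctr1-null libraries, with 0.39 ± 0.13 (edgeR adjusted p = 0.221).

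The remaining pair did not separate the groups. Ppp1r15a (chromosome 7, 45522916 to 45526268), which encodes the GADD34 subunit that recruits a phosphatase to eIF2, was at 41.5, 30.8 and 27.4 CPM in Ctr1-null cells and at 41.6, 42.9 and 34.9 CPM with BCS. Its log2 fold change was 0.26 ± 0.14, with a 95% interval of -0.06 to 0.58. Tulp2, on the opposite strand, averaged at most 0.432 CPM in a group. Nupr1 (chromosome 7, 126623249 to 126630861), a small chromatin-associated stress protein, was at 19.1, 19.0 and 12.6 CPM and then at 20.2, 18.4 and 20.4 CPM. Its log2 fold change was 0.22 ± 0.23, with an interval of -0.30 to 0.74.

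The number of members called depended on the libraries and the tool, while the directions did not. No member passed edgeR's test without Ctr1-null replicate 2, Ctr1-null replicate 3, BCS replicate 1 or BCS replicate 3, 1 passed without wild type replicate 3, Ctr1-null replicate 1 or BCS replicate 2, and 2 passed without wild type replicate 2. Without wild type replicate 1, 5 members passed, where 0.547% of all genes were called higher, and DESeq2 called 6 members among 711 genes, against 10 genes in edgeR. All 10 members kept a positive log2 fold change in each of the 19 alternatives run.

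**Figure D2:**
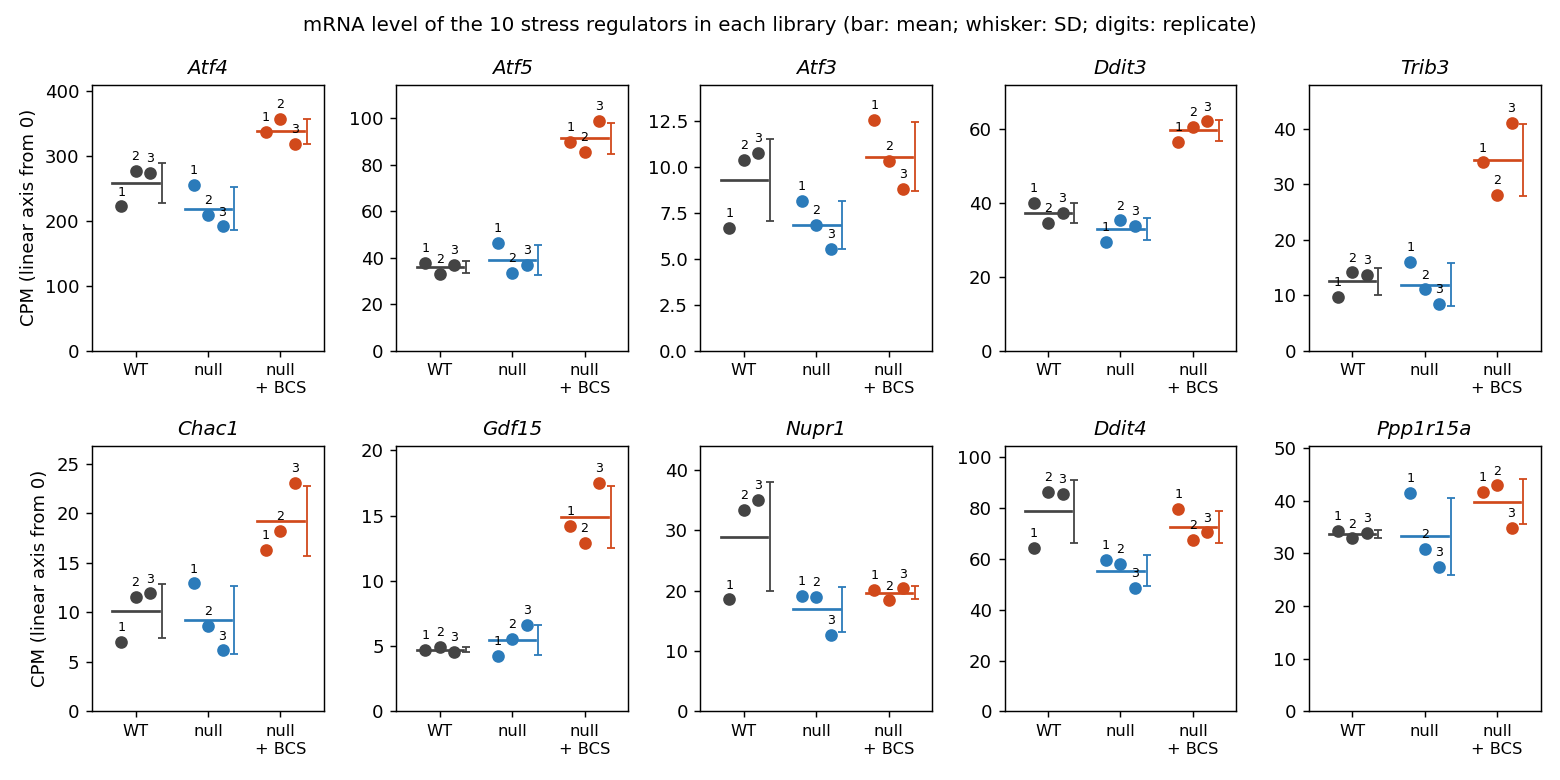
Each panel shows 1 gene, with CPM on a linear axis from 0 and 1 point per library (digits give the replicate number), a bar for the group mean and a whisker for the SD (n = 3). The BCS points lie above both other groups for Atf4, Atf5, Ddit3, Trib3, Chac1 and Gdf15, whereas in Nupr1 and Ddit4 wild type replicates 2 and 3 lie highest.

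**Figure D3:**
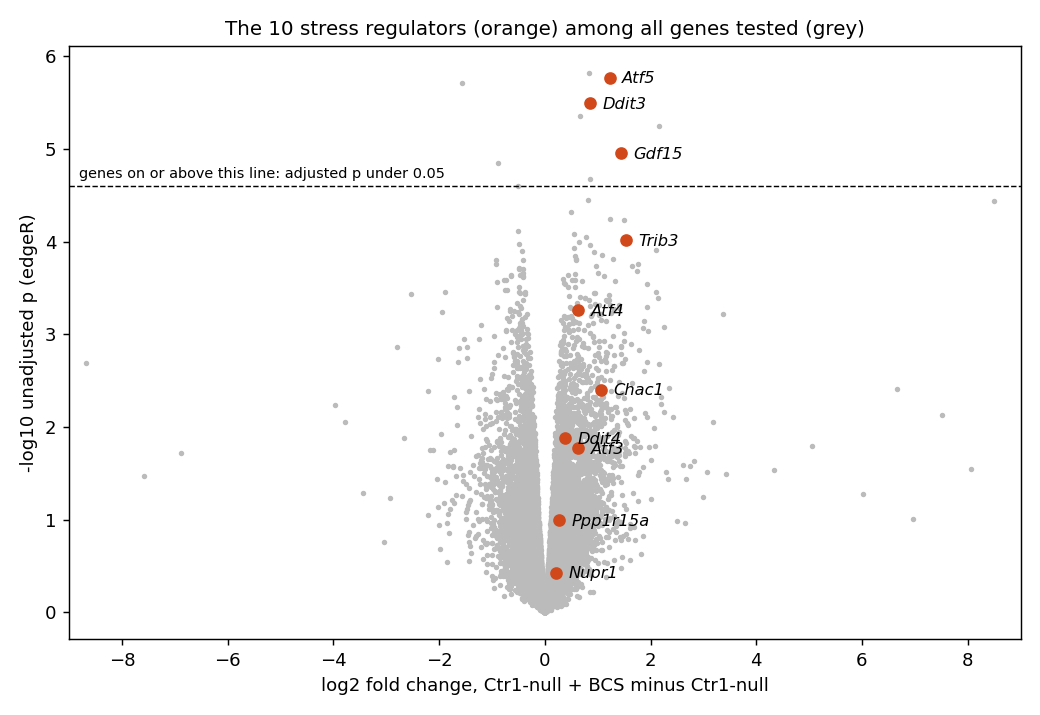
Each point is 1 of 18408 genes, with the log2 fold change of BCS-treated against untreated Ctr1-null cells on the x axis and -log10 of the unadjusted edgeR p on the y axis, and the 10 genes in orange. Atf5, Ddit3 and Gdf15 lie above the dashed line that marks an adjusted p of 0.05, and all 10 lie to the right of 0.

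The order of the libraries within each group was also read. Ctr1-null replicate 1 was the highest of its group in 8 of the 10 genes, against 37.1% of all genes tested, and Ctr1-null replicate 3 was the lowest in 7, against 32.4%. Ddit3 and Gdf15 were exceptions to both, being lowest in replicate 1, and Atf5 was highest in replicate 1 but lowest in replicate 2. In wild type, replicate 1 was the lowest in 6 of the 10, against 41.7% of all genes. Among the BCS libraries the highest was replicate 3 in 6 of the 10, against 41.2%, and replicates 1 and 2 in 2 each. As the mean of log2(CPM + 1) over the 10 genes relative to the Ctr1-null mean, wild type replicates 1, 2 and 3 stood at 0.0021, 0.29 and 0.32, and Ctr1-null replicates at 0.19, -0.0021 and -0.19. The BCS libraries stood at 0.81, 0.74 and 0.84, so the BCS libraries lay closer to each other than the libraries of either untreated group.

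Loss of Ctr1 alone was compared with wild type cells. None of the 10 genes passed the edgeR test, where 0.00543% of the genes tested were called higher and 0.00543% lower. At an unadjusted p under 0.05 were 2 of the 10, Nupr1 and Ddit4, both lower in Ctr1-null cells, as were 3239 of the 18408 genes, a similar share. DESeq2 called the same pair among 1056 genes, and limma-voom called 0 members. The median log2 fold change of the 10 was -0.16, and 8 of 10 were negative. Ddit4 was the single gene whose groups did not overlap, lower in all 3 Ctr1-null libraries, against 8.62% of the genes tested. It went from 64.4, 86.3 and 85.4 CPM in wild type to the Ctr1-null values given above, a log2 fold change of -0.51 ± 0.13 (edgeR adjusted p = 0.128).

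In wild type, Nupr1 stood at 18.6 CPM in replicate 1, 33.4 in replicate 2 and 35.02 in replicate 3, so replicate 1 lay among the Ctr1-null libraries and the other 2 far above them. Its log2 fold change was -0.78 ± 0.23 (edgeR adjusted p = 0.154). Atf3 had the same split, with 6.70 CPM in wild type replicate 1 and 10.4 and 10.7 CPM in the others, and -0.44 ± 0.22. Without wild type replicate 1, 3 members were called lower, Nupr1 (-1.02 ± 0.16, edgeR adjusted p = 0.00415), Ddit4 (-0.63 ± 0.10, 0.00513) and Atf3 (-0.63 ± 0.19, 0.0485), where 8.05% of all genes were then called lower. Leaving out the library that differs from its group narrows the wild type spread by itself.

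For Atf5, Ddit3 and Gdf15, which passed the test with BCS, and for Trib3 and Atf4, which did not, the interval for loss of Ctr1 alone included 0. The 95% interval of the log2 fold change was -0.15 to 0.38 for Atf5, -0.39 to 0.02 for Ddit3, -0.61 to 0.46 for Trib3, -0.18 to 0.60 for Gdf15 and -0.51 to 0.04 for Atf4. Trib3 was at 9.71, 14.1 and 13.7 CPM, Chac1 at 7.01, 11.5 and 11.9 CPM and Gdf15 at 4.72, 4.92 and 4.55 CPM in wild type cells, all within or close to the Ctr1-null ranges. Ppp1r15a, at 34.2, 32.8 and 33.8 CPM in wild type, had a log2 fold change of -0.02 ± 0.14, whose sign changed with upper-quartile factors (0.020), with library size alone (0.027) and without Ctr1-null replicate 2 (0.034) or 3 (0.11).

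BCS-treated Ctr1-null cells against wild type compares cells that lack the importer and were given the chelator with cells that carry the importer. It shares its libraries with both other comparisons. Copper levels are not part of these data. Here 4 of the 10 genes, Atf5, Ddit3, Trib3 and Gdf15, were called higher and 0 lower, where 8.56% of all genes tested were called higher and 7.28% lower. In 7 of 10, all BCS libraries lay above all wild type libraries, against 20.0% of the genes tested. The 7 were Atf4, Atf5, Ddit3, Trib3, Chac1, Gdf15 and Ppp1r15a. For Ppp1r15a the margin was narrow, with 34.9 CPM in BCS replicate 3 and 34.2 CPM in wild type replicate 1. Gdf15 had the largest log2 fold change, 1.65 ± 0.18 (edgeR adjusted p = 0.00327), which is 3.14-fold. Trib3 had 1.46 ± 0.24 (0.00808), Atf5 1.34 ± 0.12 (0.00164) and Ddit3 0.68 ± 0.09 (0.00549).

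Chac1 had 0.92 ± 0.28 (edgeR adjusted p = 0.0526) and Atf4 0.39 ± 0.12 (0.0594) against wild type. Atf4 was at 222, 277 and 275 CPM in wild type, all below the BCS libraries. Ppp1r15a, Atf3 and Ddit4 had 0.24 ± 0.14, 0.19 ± 0.22 and -0.12 ± 0.13, with intervals that span 0. Nupr1 had -0.56 ± 0.23 (edgeR adjusted p = 0.126), since its BCS libraries stayed near the Ctr1-null level. Without wild type replicate 1, Atf5, Ddit3, Trib3 and Gdf15 were again called higher, with log2 fold changes of 1.37, 0.72, 1.30 and 1.64, Nupr1 was called lower (-0.81 ± 0.16, edgeR adjusted p = 0.0059) and Atf3 moved to -0.0075. In that fit 15.7% of all genes were called higher and 15.3% lower.

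**Figure D4:**
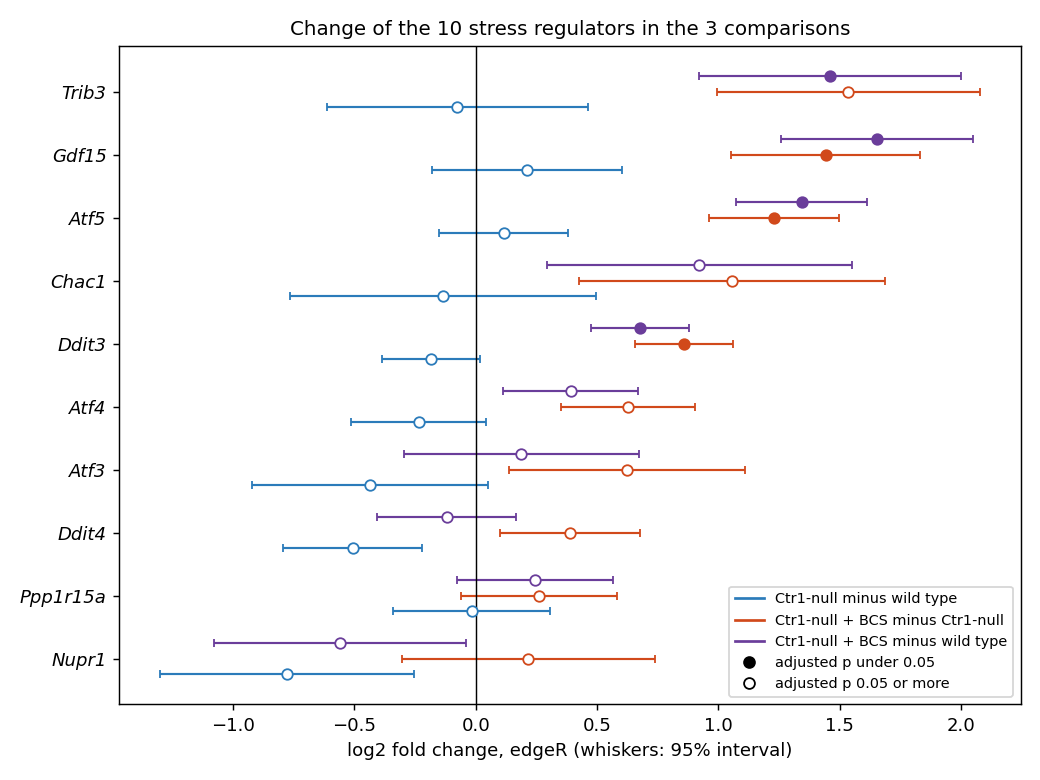
Log2 fold changes from edgeR with 95% intervals for the 10 genes in the 3 comparisons, ordered by the change with BCS, with filled points for an adjusted p under 0.05. Trib3, Gdf15, Atf5 and Ddit3 sit to the right of 0 in both BCS comparisons and span 0 for Ctr1-null against wild type, and Nupr1 lies left of 0 in both comparisons with wild type.

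Per kilobase of exon, the order of the mean levels in wild type was Atf4 (109 ± 13.1 CPM per kb, SD, n = 3), Ddit4 (44.8 ± 7.06), Ddit3 (21.8 ± 1.56), Atf5 (18.1 ± 1.28), Nupr1 (11.5 ± 3.61), Ppp1r15a (11.4 ± 0.244), Chac1 (6.19 ± 1.66), Trib3 (5.88 ± 1.14), Atf3 (4.31 ± 1.04) and Gdf15 (2.55 ± 0.0988). Nupr1 and Ppp1r15a, and the neighbours Chac1, Trib3 and Atf3, differed by less than the sum of their SDs. With BCS the order of these levels changed. Atf4 was first at 143 ± 8.07 CPM per kb, followed by Atf5 at 45.8 ± 3.38, Ddit4 at 41.3 ± 3.64 and Ddit3 at 34.8 ± 1.69. The next were Trib3 at 16.2 ± 3.06, Ppp1r15a at 13.5 ± 1.47, Chac1 at 11.7 ± 2.13, Gdf15 at 8.03 ± 1.28, Nupr1 at 7.82 ± 0.436 and Atf3 at 4.90 ± 0.881. Atf5 and Ddit4, Trib3 and Ppp1r15a, Ppp1r15a and Chac1, and Gdf15 and Nupr1 did not differ beyond the sum of their SDs. Exon length was taken over all annotated transcripts of a gene, which only approximates the transcripts these cells make.

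The genes that control eIF2 showed little of this at the mRNA level. Of 19 genes (the 4 eIF2 kinases, their regulators, the eIF2 and eIF2B subunits and the constitutive phosphatase subunit Ppp1r15b), 0 were called with BCS in Ctr1-null cells by edgeR, with 4 at an unadjusted p under 0.05 and a median log2 fold change of -0.03. The kinases had -0.13 ± 0.07 (Eif2ak1, HRI), -0.17 ± 0.08 (Eif2ak2, PKR), 0.21 ± 0.13 (Eif2ak3, PERK) and -0.23 ± 0.09 (Eif2ak4, GCN2). Dele1 and Oma1, which relay mitochondrial stress to HRI, had 0.17 ± 0.07 and 0.08 ± 0.10. The smallest p belonged to Dnajc3, an inhibitor of PERK and PKR, at -0.34 ± 0.07 (edgeR adjusted p = 0.0999). Against wild type, Dnajc3 was called lower (-0.50 ± 0.07, adjusted p = 0.00567) and Impact, an inhibitor of GCN2 signalling, higher (0.50 ± 0.07, 0.00651). List counts here and below stand beside those over all 18408 genes tested. An unadjusted edgeR p under 0.05 was found for 2708 of them with BCS in Ctr1-null cells. The number was 3239 in Ctr1-null against wild type and 6063 with BCS against wild type. In the last comparison 8.56% were called higher and 7.28% lower.

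Among 24 bZIP partners and relatives of ATF4, 0 were called with BCS in Ctr1-null cells, with 5 at an unadjusted p under 0.05. Cebpg, a partner of ATF4 at composite sites, had the smallest p, with 0.33 ± 0.08 (edgeR adjusted p = 0.128). Against wild type Jdp2 (0.75 ± 0.14, adjusted p = 0.0111), Cebpg (0.34 ± 0.08, 0.0227), Cebpa and Jund were called higher and 0 lower. Of all genes tested 8.56% were called higher there.

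Among 21 targets of ATF4 in amino acid synthesis and transport, 17 had a positive log2 fold change with BCS in Ctr1-null cells and the median was 0.38, against 50.3% positive and a median of 0.0017 over all genes tested. None passed edgeR's test, and 11 had an unadjusted p under 0.05, as had 2708 of the 18408 genes tested. The neutral amino acid transporter Slc1a4 went from 38.9, 45.1 and 41.1 CPM to 66.7, 55.2 and 63.0 CPM, without overlap (0.56 ± 0.10, adjusted p = 0.0834), and Asns, asparagine synthetase, had 0.58 ± 0.26. Psat1, of serine synthesis, had -0.08 ± 0.19. In Ctr1-null against wild type the same list had a median of -0.25 with 0 called and 7 at an unadjusted p under 0.05. In BCS-treated cells against wild type 5 were called higher, among them the cystine transporter Slc7a11 (1.75 ± 0.32, adjusted p = 0.0109) and Slc7a3 (1.49 ± 0.27, 0.0109), and 1 lower, Slc38a2 (-0.51 ± 0.10, 0.0115), and the list's median was 0.0094. Of all genes tested 8.56% were called higher and 7.28% lower there. Without BCS, Slc7a11 already had 1.17 ± 0.32 in Ctr1-null against wild type (edgeR adjusted p = 0.141). It had the smallest p of the list there, where 18 of the 21 genes were negative. Of 13 genes of aminoacyl-tRNA synthetases and tRNA export, 11 were positive with BCS in Ctr1-null cells (median 0.12), 0 were called and 4 had an unadjusted p under 0.05, with Cars at 0.37 ± 0.07 (adjusted p = 0.0842). All 13 were negative in Ctr1-null against wild type (median -0.28, 0 called, 5 at an unadjusted p under 0.05), and 10 were negative with BCS against wild type (median -0.09, 0 called, 1 at an unadjusted p under 0.05).

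Of 17 measured stress and death genes known as targets of ATF4 and CHOP, 16 were positive with BCS in Ctr1-null cells (median 0.27). An unadjusted edgeR p under 0.05 was found for 10, and 1 was called, where 0.0380% of all genes tested were called higher. That gene was Sesn2, which encodes the mTORC1 inhibitor sestrin 2, at 36.4, 41.1 and 40.3 CPM without BCS and 59.8, 61.9 and 64.2 CPM with it (0.66 ± 0.07, edgeR adjusted p = 0.0161). Adm2, a secreted peptide, was at 0.535, 0.349 and 0.269 CPM and then at 1.89, 1.27 and 1.81 CPM, a low level with a log2 fold change of 2.10 ± 0.34 (adjusted p = 0.0834). Bbc3, a BH3-only death gene, had 0.25 ± 0.21. In Ctr1-null against wild type 12 were negative (median -0.21), with 0 called and 6 at an unadjusted p under 0.05. With BCS against wild type the median was 0.15, and 4 of the 17 were called higher and 0 lower, where 8.56% of all genes tested were called higher. Vldlr, a lipoprotein receptor, was among the 4 (1.49 ± 0.18, edgeR adjusted p = 0.00462). Without BCS it already had 0.77 ± 0.18 in Ctr1-null against wild type (edgeR adjusted p = 0.104), where 5 genes of the list were positive.

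The other branches of the unfolded protein response were read from 17 ER chaperones and targets of ATF6 and XBP1. In Ctr1-null against wild type 16 were negative (median -0.19), 0 were called by edgeR and 8 had an unadjusted p under 0.05. With BCS in Ctr1-null cells 16 were again negative (median -0.24), 0 were called and 9 had an unadjusted p under 0.05. With BCS against wild type 13 of 17 were called lower and 0 higher, with a median of -0.45, where 7.28% of all genes tested were called lower. Hspa5, the chaperone BiP, was at 1312, 1290 and 1243 CPM in wild type, 1090, 1013 and 1119 in Ctr1-null cells and 756, 757 and 905 with BCS. All 3 groups were separate, and the log2 fold change with BCS was -0.67 ± 0.09 against wild type (edgeR adjusted p = 0.00566) and -0.41 ± 0.09 against Ctr1-null (0.113). Without wild type replicate 1 again 13 of 17 were called lower with BCS against wild type, where 15.3% of all genes were then called lower. Of 12 mitochondrial chaperones and proteases, a set often read together with ATF5, 0 were called with BCS in Ctr1-null cells and 1 had an unadjusted p under 0.05. Their median was -0.04, and Lonp1, a mitochondrial protease, had 0.23 ± 0.08 (adjusted p = 0.232). With BCS against wild type 1 of the 12, Htra2, was called lower (-0.37 ± 0.11, edgeR adjusted p = 0.0482) and 0 higher.

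Several of the 10 genes also respond to other pathways, so lists of those pathways were read in the same fit. Some genes stand in more than 1 list, among them Bbc3 and Pmaip1, listed both for p53 and for ATF4 and CHOP. Targets of p53, which can also induce Gdf15, Atf3 and Ddit4, had a median of 0.36 with BCS in Ctr1-null cells, with 14 of 15 positive, 12 at an unadjusted p under 0.05 and 1 called, Cdkn1a (0.84 ± 0.08, edgeR adjusted p = 0.0117). Mdm2 had 0.65 ± 0.10 (adjusted p = 0.0834). In this comparison 0.0380% of all genes tested were called higher. In Ctr1-null against wild type 13 of the 15 were negative (median -0.15), with 0 called and 5 at an unadjusted p under 0.05. With BCS against wild type 3 were called higher and 0 lower (median 0.18). Of all genes tested 8.56% were called higher and 7.28% lower in that comparison. Immediate early genes, to which Atf3 and Ppp1r15a are sometimes counted, had a median of -0.05, with 9 of 18 positive and 0 called. Hypoxia targets, which include Ddit4 in many cells, had a median of 0.13 with 7 of 12 positive, and glucocorticoid receptor targets -0.10 with 2 of 8 positive, with 0 called in each. At an unadjusted p under 0.05 were 1, 4 and 3 genes of these last lists. In Ctr1-null against wild type 0 genes of these lists were called. With BCS against wild type the immediate early genes Klf4 (1.26 ± 0.29) and Fosb (0.74 ± 0.21) were called higher. Of the hypoxia targets Vegfa was called higher (0.85 ± 0.17) and Slc2a1 lower (-0.48 ± 0.09). Of the glucocorticoid receptor targets Zbtb16 (3.17 ± 0.56) and Tsc22d3 (0.51 ± 0.13) were called higher and Fkbp5 lower (-0.35 ± 0.10). Zbtb16 and Klf4 had the smallest p of their lists in Ctr1-null against wild type too. Without BCS they had 2.04 ± 0.61 and 0.75 ± 0.28 there (edgeR adjusted p = 0.151 and 0.228). The part of any of these pathways in the levels of the 10 genes was not tested. Activity of p53 was not measured, and these cells were immortalised with T/t antigen.

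**Figure D5:**
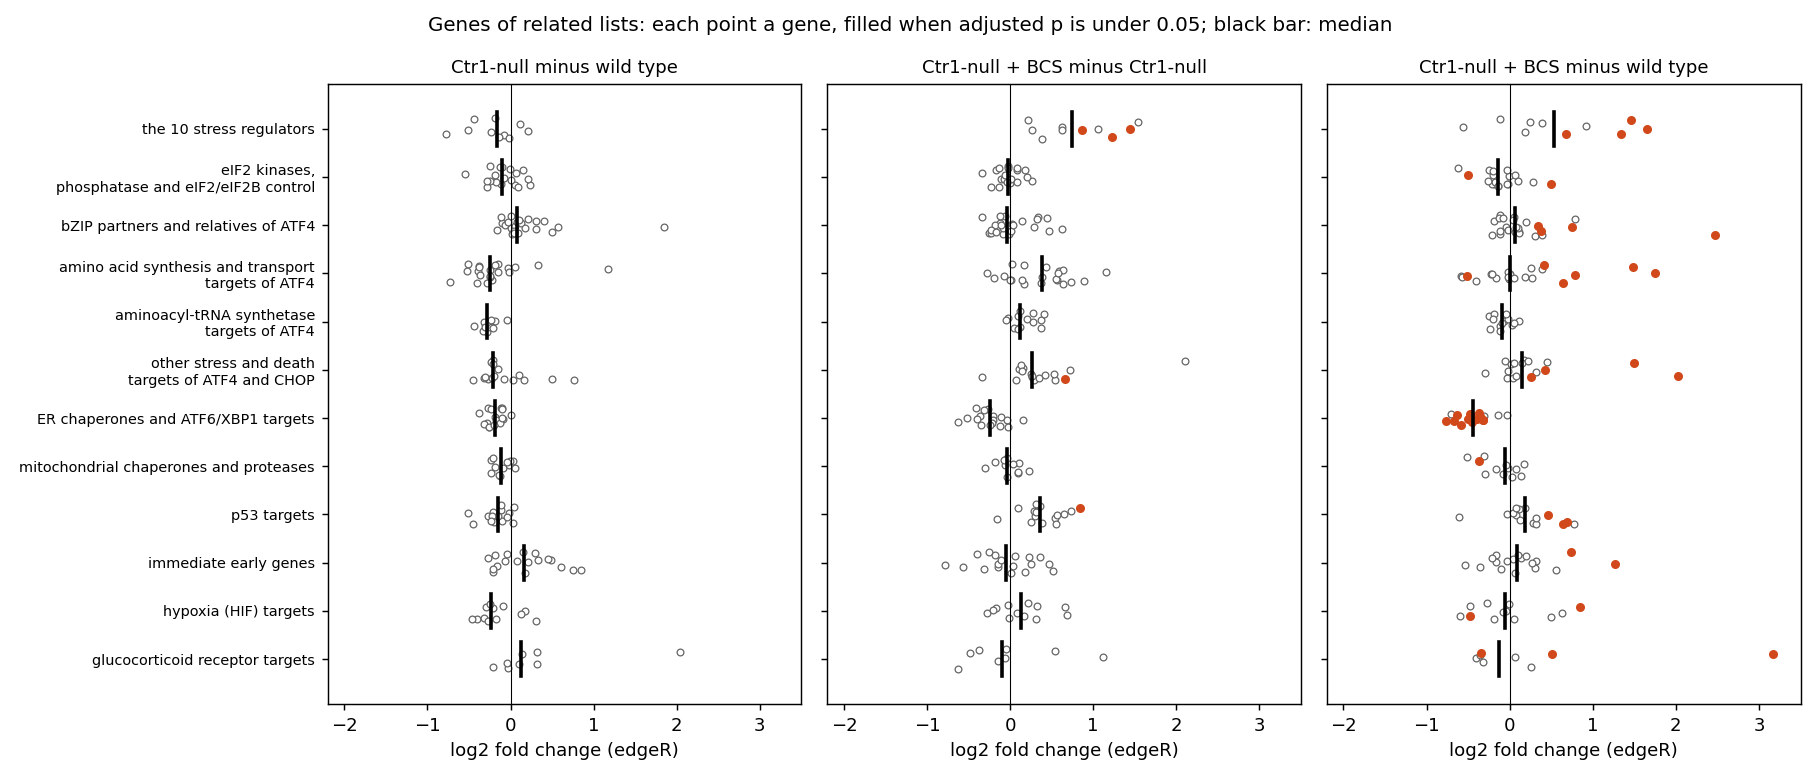
Log2 fold changes of the 10 stress regulators and of 11 related lists in the 3 comparisons, 1 point per gene, filled for an adjusted p under 0.05, with a black bar at the median. With BCS in Ctr1-null cells (middle) the medians of the 10 regulators, of amino acid genes and of p53 targets lie right of 0 and that of ER chaperones left of it, and against wild type (right) 13 of 17 ER chaperone genes are filled and below 0.

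By the Pearson correlation of log2(CPM + 1) over the 9 libraries, among 10316 named genes outside the 10 with a mean of at least 5 CPM (predicted genes left out), the pattern most like that of Ddit3 was that of Cdkn1a (r = 0.985), followed by Ganc (0.979), Sesn2 (0.971), Nudt22 (0.964) and Calhm2 (0.961). For Atf4 the most alike were Pmaip1 (0.970), Usp8 (0.960), Zup1 (0.933), Rnf41 (0.933) and Vps26c (0.931). These values rank genes by likeness and carry no test, since the BCS libraries stand apart from the other 6. Pmaip1, which encodes the death protein NOXA, had a log2 fold change with BCS of 0.54 ± 0.12 (edgeR adjusted p = 0.115) and Usp8, a deubiquitinase, 0.14 ± 0.06, so a similar pattern did not mean a similar size.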

How the data were processed

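The deposited table holds estimated counts per gene, not normalised, which the authors had rounded so that all are whole. FastQC, STAR, Salmon, DESeq2 and GRCm38 are named, with neither version nor role, per the submitters' processing notes. A second deposited table holds a scaled signal, which equals the counts over factors that differ by gene and by sample; how the authors obtained these is not stated. It was used only to recover those factors, which for the 10 genes lay within 0.876 to 1.05 of their library's median. Both ends belonged to Ppp1r15a, at 0.90, 1.03 and 0.88 in wild type and 1.05 in each BCS library. With these factors in edgeR its log2 fold change with BCS against wild type was 0.05 ± 0.16, against 0.24 ± 0.14 in the main fit. Of 52661 identifiers, 52566 matched GENCODE M21.

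All 9 libraries were fitted in edgeR 4.0.16 (R 4.3.3; TMM, filterByExpr with a minimum count of 10 and total of 15, quasi-likelihood, 3 groups, 6 residual degrees of freedom), with p-values adjusted by Benjamini and Hochberg over 18408 genes and called under 0.05. CPM uses TMM-scaled totals, and the SE was taken as |log2 fold change| / √F. The edgeR step was also run on counts simulated with known fold changes from its own fitted spread. No library was set apart in them, so they cannot show how the fit handles wild type replicate 1. DESeq2 1.42.0 and limma 3.58.1 (voom) were alternatives. Figures used matplotlib 3.10.9.

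The 10 genes and the lists were chosen with earlier results of these data known. The rule for naming genes beside the 10 was Slc31a1, up to 2 called genes per direction or the smallest p of each list and comparison, and the 5 genes most like Atf4 and Ddit3. Genes that met it but are given no values above are Hyou1, Sdf2l1, Canx, P4ha1, Eda2r, Btg2, Fosl2, Afg3l2 and Eprs. The eIF2 kinases, Dele1, Oma1, Asns, Psat1, Adm2, Bbc3 and the genes on opposite strands were added after their values were seen. A gene named for 1 comparison may be quoted in the others too.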

Additional observations from a re-analysis of the deposited data

How the results depend on the processing

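Log2 fold changes of the 10 genes changed sign in 9 of 570 pairs of a gene's comparison and an alternative. These were small values that did not pass either way: Ppp1r15a in Ctr1-null against wild type (0.020 with upper-quartile factors, 0.027 with library size alone, 0.034 and 0.11 without Ctr1-null replicate 2 or 3; range without 1 library -0.21 to 0.11), Trib3 (0.016 without wild type replicate 2, 0.12 without Ctr1-null replicate 3; range -0.36 to 0.12), Chac1 (0.087 without Ctr1-null replicate 3; range -0.46 to 0.087), Atf5 (-0.028 without Ctr1-null replicate 1; range -0.028 to 0.21) and, with BCS against wild type, Atf3 (-0.0075 without wild type replicate 1; range -0.0075 to 0.31). Counts of calls moved more. For Ctr1-null against wild type, 2 genes of all tested were called, against 4 with DESeq2's size factors, upper-quartile factors, library size alone, the stricter filter (1 CPM in 3 samples) or the authors' factors (added after seeing the data), 6 with limma-voom, 1 with only the 2 groups, 265 with no filter and 1056 with DESeq2, which called 2 members. For BCS against Ctr1-null, 10 genes were called, against 114 with no filter (5 members) and 711 with DESeq2 (6 members). Leaving out 1 library gave 1 to 3254, 0 to 183 and 568 to 5840 genes and 0 to 3, 0 to 5 and 4 to 6 members, in the order of the comparisons. Without wild type replicate 1 the related lists held 47, 14 and 63 called genes, against 0, 2 and 40. The cause was not tested.

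The labels do not state that same-numbered replicates were paired. After subtracting group means, 4 of 9 same-numbered pairs correlated above 0.1 (range -0.53 to 0.473). A library correlated best with its own number in 5 of 18 cases. With means of only 3 libraries, 1 of them outlying in wild type, this check cannot exclude a pairing. With the replicate number as a block, 1, 2 and 1543 genes and 0, 1 and 4 members were called. Gdf15 had few counts (182 to 879 per library), and their part in its SE was not tested.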
